A study of Mus musculus with 21 samples.

Results

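The sperm binding and egg calcium genes described here are 7 genes chosen by name for their part in mouse fertilization: Izumo1r, Cd9 and Cd81 at the egg surface, Itpr1 in the calcium store, and Trpm7, Trpv3 and Cacna1h as channels for calcium entry. They are 7 of 54232 genes in the count table, and all 7 had counts in all 21 libraries. The rule that lists them uses no measured value, although they were chosen with earlier results of these data known. The study depleted the spindle kinesin Kif11 in mouse oocytes and sequenced poly(A) RNA of fully-grown oocytes at the germinal vesicle stage, before meiosis resumes. Each library held 3 oocytes, from superovulated females aged 3 to 4 months on a C57BL/6 background, and a mouse gave 1 or 2 libraries.

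The 6 groups differed in the Kif11 alleles and in the Cre transgene. Kif11 wt/fl oocytes (n = 4) carried a wild-type and a floxed allele and no Cre, and served as the control. Kif11 wt/fl Spo11-Cre oocytes (n = 5) carried the same alleles with Spo11-Cre, which acts from early meiotic prophase. Kif11 fl/del oocytes (n = 4) carried a floxed and a constitutively deleted allele without Cre, so the whole animal was heterozygous. Kif11 fl/del Spo11-Cre oocytes (n = 4) had both the deleted allele and Spo11-Cre. Kif11 fl/fl Gdf9-Cre (n = 2) and Kif11 fl/fl Zp3-Cre (n = 2) oocytes carried 2 floxed alleles and a Cre driven by an oocyte-specific promoter. All 6 groups carried at least 1 floxed allele. In the fl/fl groups the driver, the alleles and the set of libraries changed together and cannot be told apart.

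Fertilization starts when the sperm protein IZUMO1 binds JUNO, the product of Izumo1r, on the egg surface, and the tetraspanin CD9 is needed in the egg for the membranes to fuse. The sperm then releases a phospholipase that raises IP3, and the IP3 receptor in the endoplasmic reticulum lets calcium out in repeated waves. Channels in the plasma membrane refill the store. The oocyte makes these products while it grows, and the transcripts measured here are those it held before ovulation.

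The libraries held 7205010 to 18454549 counts assigned to genes, and 1 count was worth 0.0542 to 0.139 CPM, the gene's count scaled to a library total of 1000000 counts. These counts were 1.95 times those in the table made for exon 22 of Kif11, by the median over abundant genes. A fragment may thus have been counted more than once. The mean level of Kif11 itself was lower than in the control in every other group, though not by the same amount. Control oocytes held 34.5 ± 8.46 CPM (SD) and those with Spo11-Cre alone 24.6 ± 5.04 CPM. Those with the deleted allele alone held 11.9 ± 3.06 CPM and those with both 1.78 ± 0.685 CPM. With Spo11-Cre alone the libraries overlapped those of the control, at 17.6 to 30.5 against 23.8 to 43.2 CPM. That difference was not called (edgeR adjusted p = 0.237). The fl/fl libraries averaged 5.56 CPM (4.27 to 7.95). They were above all fl/del Spo11-Cre libraries, with a log2 fold change of 1.55 (edgeR adjusted p = 0.00015). The summed level of 12 oocyte markers was 20945 to 30450 CPM. That of 18 follicle cell markers was 73.7 to 127 CPM, of which Cyp19a1 made up the largest share by level per length, and Foxl2, Ptx3 and Tnfaip6 were at 0 in every library. One library stood apart in the sum of the scarcer markers, though not in each of them. Without Cyp19a1 and Nr5a2, the 2 abundant ones, the other 16 summed to 22.3 CPM in fl/fl Gdf9-Cre replicate 1 and to 3.18 to 9.69 CPM in the other 20 libraries. That library held 58 counts of Inha (5.39 CPM), 22 of Gja1, 14 of Amhr2 and 12 of Amh, all known from granulosa cells, whereas the other Gdf9-Cre library held 0 of each. Of the 16 markers, 6 were highest in replicate 1. Has2, Inhba, Inhbb and Lhcgr were at 0 there, and Fshr and Cyp11a1 were lower in CPM than in the other Gdf9-Cre library. Gja1 also had 18 counts in fl/del replicate 4. Inha was the 1 follicle cell marker called over the 6 groups (edgeR adjusted p = 0.00881). It also had 20 and 18 counts in wt/fl replicates 1 and 2 and 18 and 36 in fl/del replicates 3 and 4. The call is therefore not a measure of Gdf9-Cre replicate 1 alone. Of 8 blood, vessel and stroma markers, with a summed 18.6 to 38.5 CPM, Hbb-bs, Hba-a1 and Acta2 were at 0 in every library. The lowest depth was that of fl/del replicate 3. No member's call in a comparison changed when that library was left out. As 3 oocytes were pooled, fewer cells with a transcript and less of it per cell cannot be told apart.

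The genes lie on different chromosomes except for Cd9 and Itpr1, both on chromosome 6. In GRCm38 with the GENCODE annotation, Izumo1r spans chr9:14885814-14903949 on the minus strand with 9 merged exons. Cd9 spans chr6:125460266-125494791 (minus, 10 exons), Cd81 chr7:143052739-143067934 (plus, 9 exons) and Itpr1 chr6:108213096-108551109 (plus, 64 exons). Trpm7 spans chr2:126791565-126876230 (minus, 39 exons), Trpv3 chr11:73267388-73300363 (plus, 18 exons) and Cacna1h chr17:25374285-25433783 (minus, 35 exons). The exons of Cd9 add up to 2044 bases, of which 218 are shared with the antisense gene Gm26728, and those of Itpr1 add up to 18319 bases. The library kit does not mark strand, so reads in shared bases cannot be assigned by strand.

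The promoters of the oocyte's own genes often hold E-boxes, CANNTG, the letters bound by the oocyte factor FIGLA with its partner. The 30 bases from 40 to 11 before each RefSeq start (GRCm38.p6, sense strand, 5′ to 3′) are printed to show what the starts of the abundant and the scarce members look like, with E-boxes in capitals. RefSeq entries matched 5 of the 7 members, the others being Itpr1 and Cacna1h.
Izumo1r (chr9:14903778-14903807): agctgaaggctgataaaagggcagtgggtg
Cd9 (chr6:125494771-125494800): cgCACATGcgcatagCAGCTGgccgagcgc
Cd81 (chr7:143052710-143052739): ggagcgtcctctgggcggggcctcggaggg
Trpm7 (chr2:126876272-126876301): agtaagcgcgcccttCACGTGacacgccct
Trpv3 (chr11:73267480-73267509): gatgccgagggCAGGTGgcccagccagttt
Cd9 held 2 E-boxes in this window, Trpm7 1 and Trpv3 1. CANNTG reads alike on both strands and was found in 10.4% of all 32851 promoters in the same 30 bases, and in 66.2% in the 250 bases before the start. The abundant Izumo1r had none in the short window and 1 in the long one. These matches describe letters and not binding. The GENCODE spans of Izumo1r, Cd9, Cd81 and Trpv3 start further upstream than the RefSeq starts. The windows of Izumo1r and Trpv3 lie wholly inside those spans, and that of Cd9 mostly so. The window of Cd81 reaches its span with the last base only. For Izumo1r, Trpv3 and most of the window of Cd9, the bases are upstream of the RefSeq start only.

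Per length, the members fell into an abundant pair and 5 scarce genes. The authors' TPM (a share of a library's transcripts that is corrected for gene length) averaged 673 for Izumo1r, with a range of 565 to 770 over the 21 libraries. Izumo1r ranked 225 among 23225 genes with counts in at least 3 libraries. Cd9 followed at 220 TPM (172 to 271), rank 799, and the ranges of Izumo1r, Cd9 and the next gene did not overlap. The transcript of JUNO, the egg's receptor for IZUMO1, thus stood 3.05-fold above that of Cd9 in mean TPM. Trpm7, a channel fused to a kinase that passes magnesium and calcium, averaged 7.38 TPM, and Itpr1 averaged 3.17 TPM. Their ranges overlapped, although Trpm7 was the higher in 21 of 21 libraries. Trpv3, a heat-sensitive cation channel, averaged 2.10 TPM, Cd81 1.48 TPM and Cacna1h, which encodes the T-type channel CaV3.2, 1.13 TPM. These last 3 overlapped, with Trpv3 above Cd81 in 16 and Cd81 above Cacna1h in 14 of 21 libraries. The span from Izumo1r to Cacna1h was 595-fold.

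**Figure D1:**
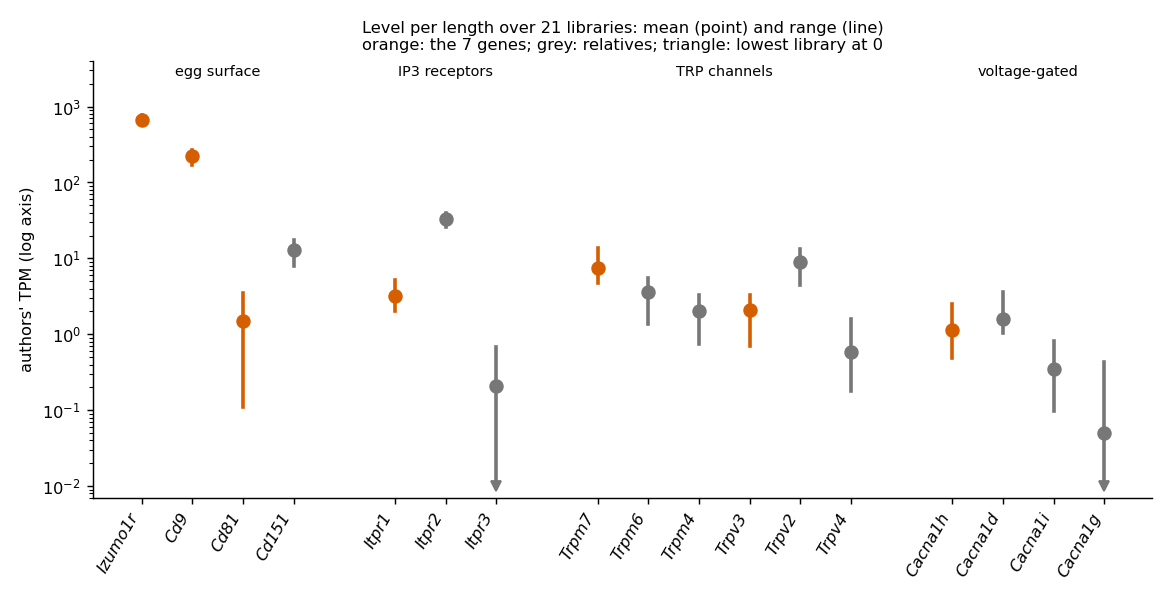
Authors' TPM on a log axis for the 7 genes (orange) and relatives from the same families (grey). Points are means and lines the range over 21 libraries, and triangles mark a lowest library at 0. Izumo1r and Cd9 stand at 172 TPM or more in every library, and Itpr2 stands above Itpr1 with no overlap.

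Some relatives stood above the named member of their family. Itpr2, a second IP3 receptor, averaged 32.8 TPM (26.0 to 39.0), 10.3-fold above Itpr1, and was the higher in 21 of 21 libraries by 7.27-fold to 18.1-fold. Itpr3 averaged 0.206 TPM. Thus the transcript of type 1, the receptor best known for the calcium waves of the mouse egg, was the less abundant of the 2 detected in all libraries. Trpv2 (8.90 TPM) was above Trpv3 in 21 of 21 libraries, whereas Trpv4 (0.593 TPM) was below it in 20. Trpm7 was above Trpm6 (3.64 TPM), its close relative with a kinase of its own, in 21 of 21 libraries. Among voltage-gated channels, Cacna1d, an L-type pore subunit, averaged 1.61 TPM and was above Cacna1h in 16 libraries. The other T-type genes were lower than Cacna1h in 21 of 21 libraries, at 0.354 TPM for Cacna1i and 0.0498 TPM for Cacna1g. Cd9 exceeded its close relative Cd81 by 149-fold in mean TPM.

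**Figure D2:**
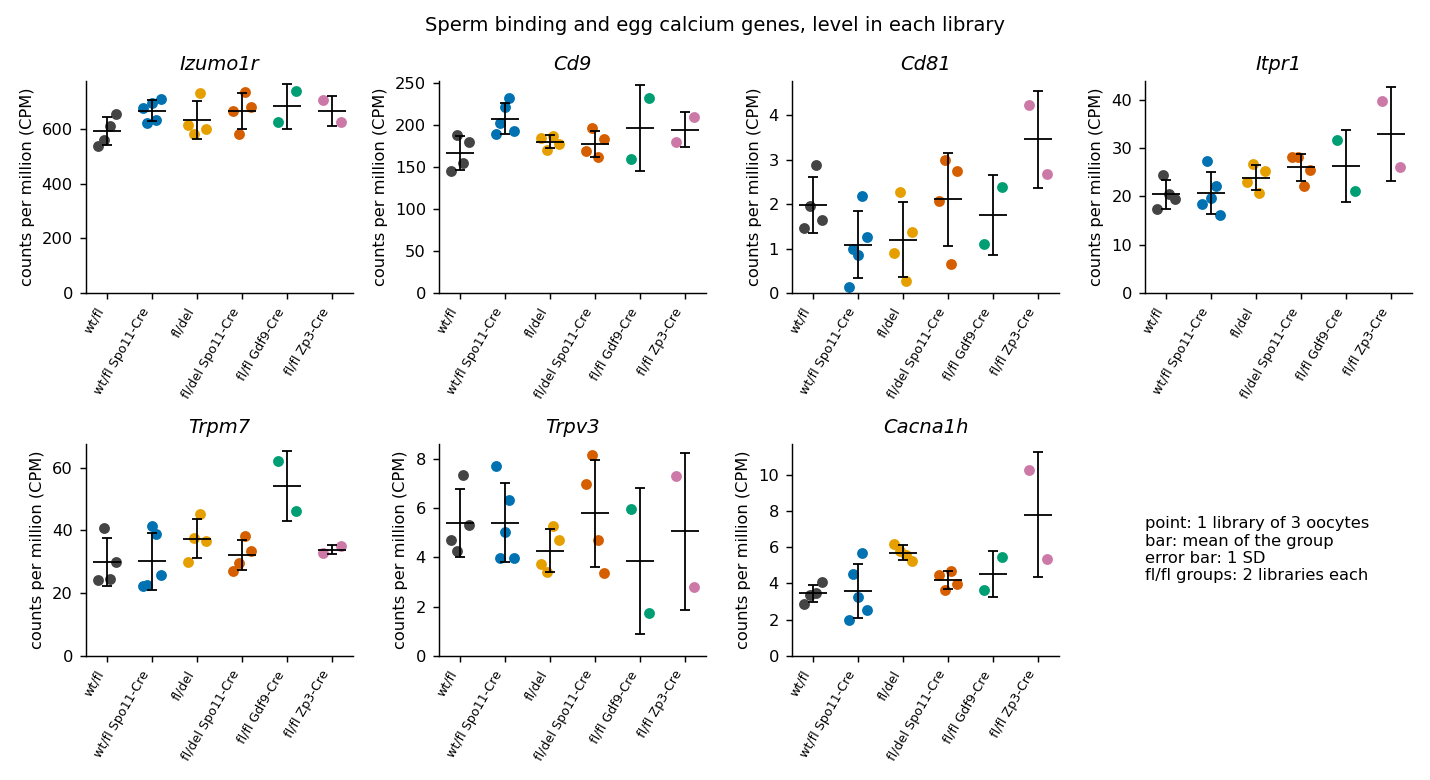
CPM of each gene in each library by group, with the mean (bar) and 1 SD (error bar). Cd9 libraries of wt/fl Spo11-Cre (190 to 232 CPM) lie above all wt/fl libraries, those of Cacna1h in fl/del lie above all wt/fl libraries, and the 2 Gdf9-Cre libraries are the highest of all in Trpm7.

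Differences were tested with edgeR's quasi-likelihood test over all genes, with p-values adjusted over all genes tested (Benjamini-Hochberg) and called at 0.05. The libraries may share mice, so the p-values measure the spread between these libraries, which may in part be technical. Over 10 comparisons and 70 tests of a member, 1 was called, that of Cd9 between wt/fl Spo11-Cre and wt/fl.

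The comparison of wt/fl Spo11-Cre with wt/fl asks what Cre and the loss of the floxed allele do together. Cd9 measured 145, 188, 155 and 180 CPM in wt/fl replicates 1 to 4. In wt/fl Spo11-Cre replicates 1 to 5 it measured 190, 202, 221, 232 and 193 CPM. All 5 libraries with Cre were above all 4 without, although the lowest with Cre and the highest without lay close together. The means were 167 ± 20.4 and 208 ± 18.1 CPM (SD), a 1.26-fold rise (95% interval 1.11 to 1.44), or a log2 fold change of 0.34 ± 0.09 (SE) with an edgeR adjusted p of 0.0324. Cd9 was thus 1 of 7 members called, where 2.19% of all 22383 genes were called and 0.867% were called higher. It was also 1 of 7 members whose libraries did not overlap, against 4.95% of all genes.

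The call of Cd9 was not stable. The log2 fold change stayed between 0.27 and 0.40 in all alternatives, but the call was lost in 5 of 17 fits that left out 1 library. The adjusted p was 0.151 without wt/fl replicate 1, 0.0750 without wt/fl replicate 3, 0.0502 without wt/fl Spo11-Cre replicate 2, 0.0742 without replicate 3 and 0.104 without replicate 4 of that group. It was also lost, with an adjusted p of 0.0925, where libraries that share a name prefix, and may come from 1 mouse, were summed. DESeq2 called it. The level of long against short transcripts also differed between these groups, with almost no gap between their nearest libraries. The median log2 level of genes with at least 8 kb of exons, less that of genes with at most 2.5 kb, each relative to the mean of all libraries, was −0.01 to 0.12 in wt/fl and −0.22 to −0.02 in wt/fl Spo11-Cre. The −0.22 was that of replicate 5, and the next lowest was −0.07 in replicate 4. In fl/del Spo11-Cre the range was −0.155 to −0.005. Cd9 belongs to the short genes. The part of length in the result was not tested.

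**Figure D3:**
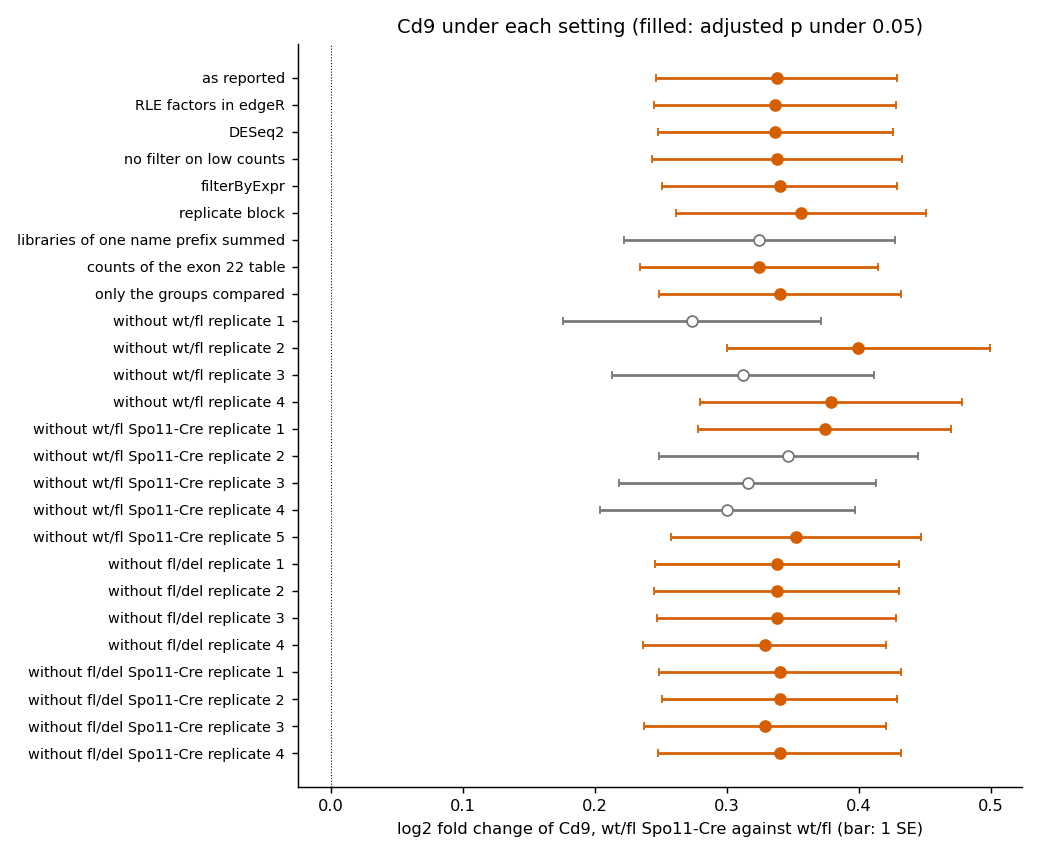
Log2 fold change of Cd9 between wt/fl Spo11-Cre and wt/fl, with 1 SE, as reported and under each alternative. All points lie between 0.27 and 0.40, and open points mark an adjusted p of 0.05 or more, which were the sum by name prefix and 5 of the fits without 1 library.

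The other members did not pass in that comparison. Izumo1r measured 538, 561, 611 and 653 CPM in wt/fl and 677, 620, 693, 633 and 708 CPM in wt/fl Spo11-Cre, and the groups overlapped. Its log2 fold change was 0.20 ± 0.08 (edgeR adjusted p = 0.224). It was, with Cd9, 1 of 2 members at an unadjusted p below 0.05, as were 15.0% of all genes. Itpr1, Trpm7, Trpv3 and Cacna1h had log2 fold changes between 0.02 and 0.08. Cd81, with 2 to 34 counts in a library of wt/fl Spo11-Cre, had a log2 fold change of −0.84 with a 95% interval from −2.09 to 0.42, so a difference of moderate size was not detectable at this depth.

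Between fl/del and wt/fl, which compares animals with and without the deleted allele, no member was called by edgeR or DESeq2, and 0.0223% of all genes were. None had an unadjusted p below 0.05, as had 8.52% of all genes. The widest gap was that of Cacna1h. It measured 2.87, 3.38, 3.49 and 4.06 CPM in wt/fl and 6.20, 5.79, 5.55 and 5.23 CPM in fl/del. The groups did not overlap, as for 2.99% of all genes, and Cacna1h was the only member of which this was so. The log2 fold change was 0.74 ± 0.38 and its fold change 1.67 with a 95% interval from 0.987 to 2.82 (edgeR adjusted p = 0.589). These levels rest on 40 to 97 counts per library.

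Cacna1h in fl/del was also above all fl/del Spo11-Cre libraries, which measured 4.48, 3.62, 4.68 and 3.95 CPM. The log2 fold change of fl/del Spo11-Cre against fl/del was −0.47 ± 0.37 (edgeR adjusted p = 0.797). Cacna1h was 1 of 7 members without overlap there, against 3.65% of all genes. No member was called by edgeR or DESeq2, while 0.241% of all genes were, or had an unadjusted p below 0.05, as had 8.32% of all genes. These 2 comparisons share the fl/del libraries. The spread of Cacna1h within groups was small: its coefficient of variation was 14.2% in controls, 7.22% with the deleted allele alone and 11.6% with Spo11-Cre added, where genes of like level had medians of 33.5%, 33.2% and 31.4%. Counting error alone would give at least 14.8%, 11.1% and 12.5%, and more where a fragment was counted more than once. In wt/fl Spo11-Cre it was 42.1%, with libraries from 1.95 to 5.67 CPM that spanned the levels of wt/fl and reached into those of fl/del.

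Oocytes with the strongest depletion, fl/del Spo11-Cre, showed no member called against wt/fl by edgeR or DESeq2, where 0.197% of all genes were called. None had an unadjusted p below 0.05, as had 10.4% of all genes. Itpr1 measured 17.4, 24.4, 20.5 and 19.5 CPM in wt/fl and 28.2, 28.2, 22.3 and 25.4 CPM in fl/del Spo11-Cre. The groups overlapped in 1 wt/fl library, replicate 2. The log2 fold change of Itpr1 was 0.35 ± 0.18 (edgeR adjusted p = 0.484), and that of Izumo1r was 0.17 ± 0.09 (edgeR adjusted p = 0.491). The 95% interval of the fold change was 0.997 to 1.26 for Izumo1r and 0.929 to 1.21 for Cd9, whereas for Cd81 it ran from 0.427 to 2.62.

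Against wt/fl Spo11-Cre, the fl/del Spo11-Cre libraries had lower values in Cd9. They measured 169, 196, 162 and 183 CPM, against 190 to 232 CPM, and overlapped in replicate 2. The log2 fold change was −0.25 ± 0.09 (edgeR adjusted p = 0.702). Cd9 was the 1 member with an unadjusted p below 0.05, as were 7.11% of all genes. No member was called by edgeR or DESeq2, and 0.0357% of all genes were. The interaction asks whether Spo11-Cre had another effect with the deleted allele than with the wild-type one. For Cd9 it was −0.38 ± 0.13 on the log2 scale (edgeR adjusted p = 0.284), again the 1 member at an unadjusted p below 0.05, as were 10.3% of all genes. No member was called, by DESeq2 either, and 0.103% of all genes were called. The fl/del group was the evenest in Cd9, with 185, 170, 187 and 178 CPM.

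**Figure D4:**
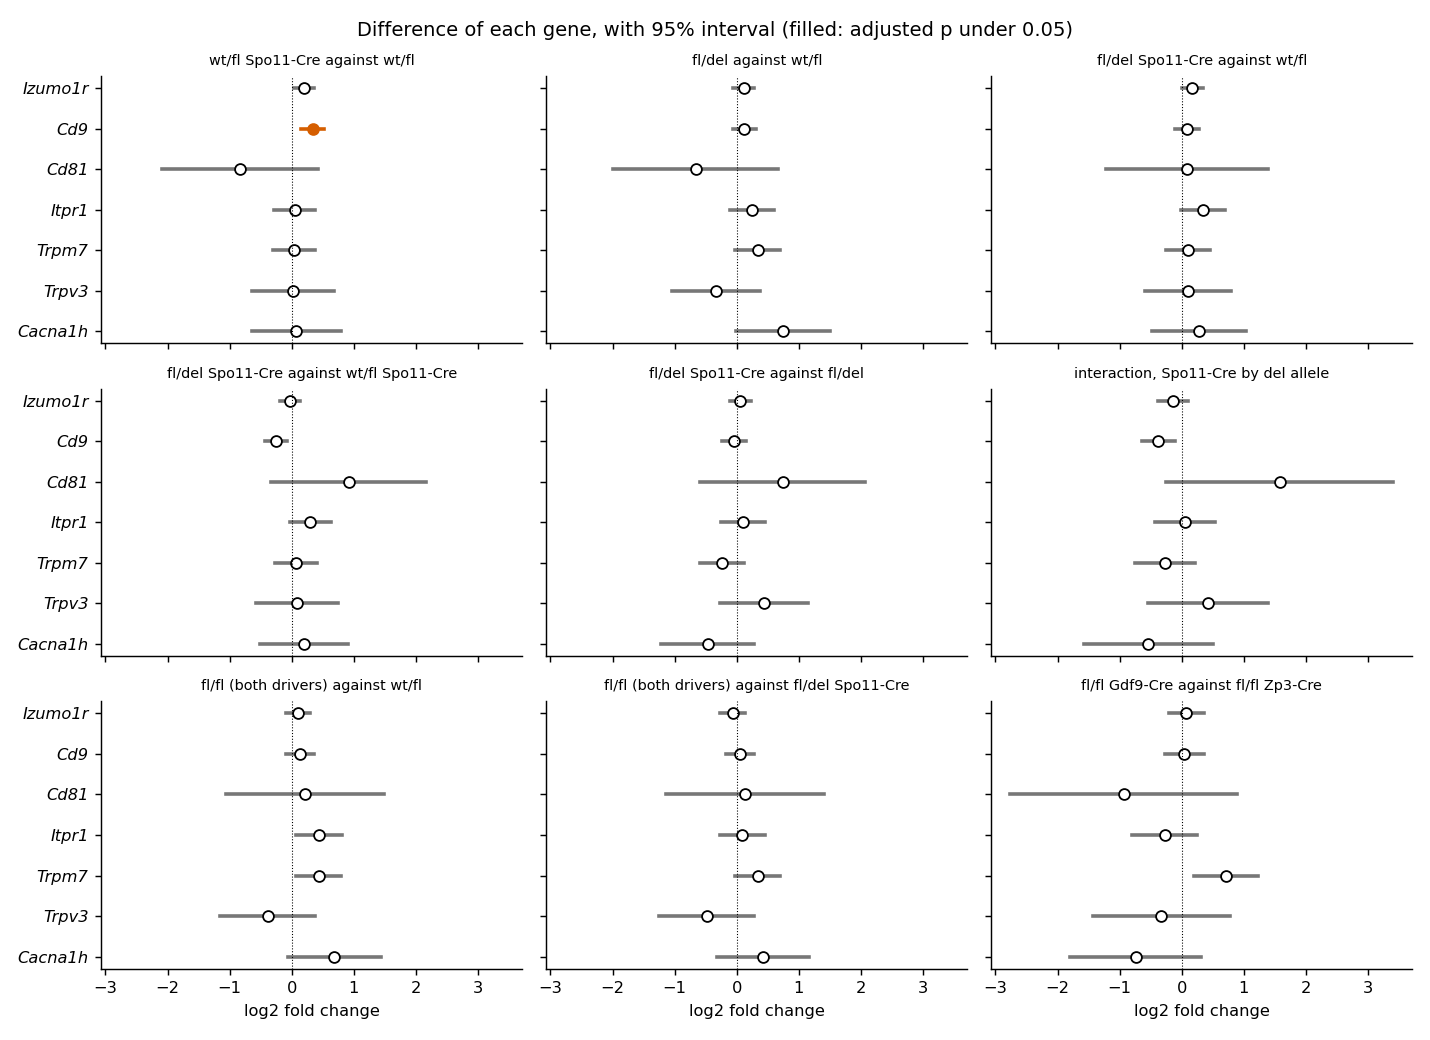
Log2 fold change of each gene with its 95% interval in 8 comparisons and the interaction. The filled point marks Cd9 in wt/fl Spo11-Cre against wt/fl, the only one with an adjusted p below 0.05, and the intervals of Cd81 are the widest.

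The fl/fl groups extend the comparison to other oocyte drivers. Against wt/fl, no member was called by edgeR or DESeq2, while 2.79% of all genes were, and 2 members, Itpr1 and Trpm7, had an unadjusted p below 0.05, as had 14.3% of all genes. Itpr1 measured 31.6 and 21.1 CPM with Gdf9-Cre and 39.7 and 26.0 CPM with Zp3-Cre. Its log2 fold change against wt/fl was 0.43 ± 0.19 (edgeR adjusted p = 0.247), with overlap. Trpm7 measured 62.2 and 46.3 CPM with Gdf9-Cre and 32.8 and 34.9 CPM with Zp3-Cre, against 24.3, 40.8, 24.5 and 30.0 CPM in wt/fl. Its log2 fold change against wt/fl was 0.43 ± 0.18 (edgeR adjusted p = 0.230). Trpm7 and Itpr1 both belong to the long genes, with 11315 and 18319 bases of exons. The level of long against short transcripts was 0.24 and −0.14 in Gdf9-Cre replicates 1 and 2. It was 0.04 and 0.16 in Zp3-Cre replicates 1 and 2, and the part of length was not tested. Against fl/del Spo11-Cre no member was called by edgeR or DESeq2, while 2.9% of all genes were, or had an unadjusted p below 0.05, as had 14.0% of all genes. Comparisons that share wt/fl libraries are not independent of each other. Gdf9-Cre replicate 1 was the library that stood apart in follicle cell markers. Without it, the log2 fold changes against wt/fl were 0.28 for Itpr1 and 0.33 for Trpm7. Those of the other members were then larger in size. They were 0.17 for Izumo1r, 0.27 for Cd9, 0.44 for Cd81, −0.95 for Trpv3 and 0.83 for Cacna1h. With that library they were 0.10, 0.14, 0.21, −0.39 and 0.69. The fit without it holds only 1 Gdf9-Cre library.

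Between the drivers themselves, Trpm7 had the lowest unadjusted p of the members but was not called. Both Gdf9-Cre libraries were above the 45.2 CPM of the highest library in the other groups. The means were 54.3 ± 11.2 CPM for Gdf9-Cre and 33.9 ± 1.49 CPM for Zp3-Cre, with a log2 fold change of 0.71 ± 0.26 (95% interval 0.20 to 1.23, edgeR adjusted p = 0.288). Without Gdf9-Cre replicate 1, the higher of the pair and the one that stood apart in follicle cell markers, it was 0.49. The log2 fold change of Trpv3 went from −0.33 to −1.48 when that library was left out. Trpm7 was 1 of 2 members without overlap between the drivers, with Cd81, and 27.7% of all genes did not overlap between these 2 pairs of libraries. No member was called by edgeR or DESeq2, 0.891% of all genes were, and Trpm7 was the 1 member at an unadjusted p below 0.05, as were 7.14% of all genes. Over the 6 groups at once, Trpm7 had the lowest adjusted p of the members, 0.0725, where 5.57% of all genes were called. With all 21 libraries Trpm7 was again the 1 member at an unadjusted p below 0.05, as were 17.8% of all genes. DESeq2 called no member. Without Gdf9-Cre replicate 1, which leaves 1 Gdf9-Cre library, Cd9 and not Trpm7 had the lowest adjusted p of the members. In data simulated on these libraries a 1.5-fold change was found in 4.48% of changed genes between the drivers and a 2-fold change in 29.9%, against 40.3% and 56.7% between wt/fl Spo11-Cre and wt/fl. Each rate pools 67 expressed genes of all levels, so it is not the rate for Trpm7 or another member.

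Trpm7 was the most variable member for its level. Pooled within the 6 groups, its SD of log2 CPM was above that of 88.6% of genes of like level. Its coefficient of variation was 25.8% in wt/fl and 30.6% in wt/fl Spo11-Cre, above 91.9% and 98.3% of such genes. It was above only 61.7% of them in fl/del, 58.6% in fl/del Spo11-Cre, 68.9% in Gdf9-Cre and 15.1% in Zp3-Cre. In wt/fl Spo11-Cre the values were 22.2, 22.5, 41.3, 38.8 and 25.9 CPM, and the high pair, replicates 3 and 4, shared a library name prefix, as did replicates 1 and 2. In wt/fl replicates 1 and 2 shared a prefix and measured 24.3 and 40.8 CPM. Izumo1r and Cd9 varied by 5.72% to 12.0% and by 4.24% to 26.0%. Trpv3 varied by 20.3% to 77.4%, and its fl/fl libraries, 5.95 and 1.74 CPM with Gdf9-Cre and 7.31 and 2.81 CPM with Zp3-Cre, covered nearly the whole range of 1.74 to 8.15 CPM. Cd81 had 2 to 53 counts per library, a level of 0.130 to 4.23 CPM, and 2 libraries, wt/fl Spo11-Cre replicate 1 and fl/del replicate 3, had only 2 counts each. Reads from PCR without molecular tags are not independent molecules, so such counting limits are lower bounds of the error.

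The genes with the profile nearest to each member over the 21 libraries were sought by Pearson's r of log2(CPM + 1) among 7755 genes with a mean of at least 10 CPM. As the best of 7755, such values are high by selection, and the libraries share depth, groups and preparation. For Izumo1r they were Gm36241 (r = 0.78) and Trappc3 (r = 0.75), and for Cd9 Ccl25 (r = 0.79) and Ube2f (r = 0.74). For Itpr1 they were Smad3 and Psme4 (r = 0.83 each). Trpm7 was nearest to Pdia3 (r = 0.81) and Hspa5 (r = 0.80), which both encode chaperones of the endoplasmic reticulum. Cd81 was nearest to Gm14671 and Slc31a2, Trpv3 to Zmym2 and Gm15920, and Cacna1h to Adamtsl1 and Rmnd5a, with r from 0.69 to 0.72.

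Other genes of these pathways were read from lists of egg surface partners (10 genes), calcium stores, pumps and entry (25), other TRP and voltage-gated channels (21), calcium decoders (25) and sperm-borne partners (12). The lists were chosen with earlier results of these data known. The shares called, here and below, therefore describe the lists and do not test them. Of 79 tested between wt/fl Spo11-Cre and wt/fl, 3 rose and 0 fell, 3.80% against 2.19% of all genes. Cd55, a complement regulator with a lipid anchor on the egg surface, rose from 479 ± 58.7 to 610 ± 63.1 CPM, a log2 fold change of 0.38 (edgeR adjusted p = 0.00678). Itpr2 rose from 176 ± 9.69 to 216 ± 20.2 CPM, a log2 fold change of 0.32 (edgeR adjusted p = 0.0436). Trpm4, a calcium-activated channel for monovalent cations, rose from 5.18 ± 1.38 to 11.7 ± 2.86 CPM with no overlap, a log2 fold change of 1.20 (edgeR adjusted p = 0.00646). The list medians lay between −0.12 for surface partners and 0.29 for the other channels among these 3 lists, and the median of all genes was 0.03. Of the oocyte markers Nobox, Zar1 and Zp1 fell and Ooep rose in the same comparison, with fold changes from 0.748 to 1.25. Their part in the rise of Cd9 was not tested. Trpm4 kept its call in 17 of 17 fits without 1 library. Cd55 kept it in 16, with an adjusted p of 0.0563 without wt/fl replicate 1, and Itpr2 in 8, with an adjusted p of up to 0.151. Itpr2 also lost it with libraries of one name prefix summed (adjusted p = 0.0746) and with a replicate block (adjusted p = 0.0976).

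Trpm4 also rose in fl/del Spo11-Cre against wt/fl, to 13.0 ± 1.53 CPM, a log2 fold change of 1.32 (edgeR adjusted p = 0.0110). It was the only 1 of 79 listed genes called there, against 0.197% of all genes. The call was lost without wt/fl replicate 1 (adjusted p = 0.0706). Both comparisons use the same wt/fl libraries. Without Cre, Trpm4 had a log2 fold change of 0.30 in fl/del (edgeR adjusted p = 0.812), and fl/del Spo11-Cre against fl/del gave 1.02 (edgeR adjusted p = 0.126). None of the 79 was called by edgeR between fl/del and wt/fl, between fl/del Spo11-Cre and either wt/fl Spo11-Cre or fl/del, or in the interaction. The unadjusted p was below 0.05 for 9, 5, 8 and 13 of them in these 4 tests, against 8.52%, 7.11%, 8.32% and 10.3% of all genes, and DESeq2 called 0, 0, 1 and 1.

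In the fl/fl groups against wt/fl, 5 of 81 listed genes rose and 0 fell, 6.17% against 2.79% of all genes. They were Itga6, an integrin subunit of the egg surface (log2 fold change 0.56), Atp2a2, the calcium pump SERCA2 of the endoplasmic reticulum (0.44), Micu2, a regulator of mitochondrial calcium uptake (0.59), Plcb1, a phospholipase that makes IP3 (0.58), and Ppp3r1, the calcium-binding subunit of calcineurin (0.87). The edgeR adjusted p-values ran from 0.000458 for Ppp3r1 to 0.0375 for Micu2. Ppp3r1 averaged 66.2 ± 7.04 CPM in the 4 fl/fl libraries and 34.0 ± 9.25 CPM in wt/fl, without overlap, and kept its call in 21 of 21 fits without 1 library. The other 4 lost it in 1 to 6 of these fits, among which Itga6 did so only without Zp3-Cre replicate 1 (adjusted p = 0.318). All 4 also lost it when only the groups compared were fitted, and with libraries of one name prefix summed, where the adjusted p was 0.0988 for Itga6, 0.209 for Atp2a2, 0.184 for Micu2 and 0.152 for Plcb1. Without Gdf9-Cre replicate 1, the library that stood apart in follicle cell markers, Itga6, Micu2 and Ppp3r1 kept their calls and Atp2a2 (adjusted p = 0.155) and Plcb1 (adjusted p = 0.103) lost them. Itga6, Atp2a2, Micu2 and Ppp3r1 also rose against fl/del Spo11-Cre, with log2 fold changes from 0.65 to 1.19, which made 4 of 81, against 2.9% of all genes. Micu2 lost this call without Zp3-Cre replicate 1 (adjusted p = 0.208) and with libraries of one name prefix summed (adjusted p = 0.0767), and all 4 kept it without Gdf9-Cre replicate 1. Zp1 and Zp3 among the oocyte markers fell against wt/fl, with log2 fold changes of −0.47 and −0.32.

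Between the drivers, 3 of 81 listed genes were called, 3.70% against 0.891% of all genes. Stim2, a sensor of store calcium, was higher with Gdf9-Cre (log2 fold change 0.93, edgeR adjusted p = 0.0192), as was Atp2b1, a calcium pump of the plasma membrane (0.82, edgeR adjusted p = 0.00129). Atp2a2 was lower with Gdf9-Cre (−0.66, edgeR adjusted p = 0.0328), at 106 and 140 CPM against 160 and 240.2 CPM with Zp3-Cre. Each lost its call in 1 to 3 fits without 1 of the 4 fl/fl libraries, with an adjusted p of up to 0.647 for Atp2a2, and when only these 4 libraries were fitted. Over the 6 groups 7 of the 81 were called, namely Itga6, Stim2, Atp2a2, Atp2b1, Micu2, Trpm4 and Ppp3r1, where 5.57% of all genes were. Stim2 lost this call in 3 fits without 1 of the fl/fl libraries (adjusted p up to 0.117), Atp2b1 in 1, without Gdf9-Cre replicate 2 (adjusted p = 0.0625), and Micu2 in 3 (adjusted p up to 0.153) and with libraries of one name prefix summed (adjusted p = 0.0889). The part of follicle cell transcripts in the fl/fl results was not tested beyond leaving out Gdf9-Cre replicate 1.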

How the data were processed

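Counts and TPM were deposited as tables of the whole series. By the authors' methods, fastp removed adapters, HISAT2 2.2.1 placed the reads on GRCm38, and featureCounts 2.0.3 gave counts of uniquely placed reads in Ensembl release 93 genes. The deposited counts are not normalized, and the authors' TPM divide by length. Symbols were found for 54079 of 54232 identifiers. The table over all exons was used; the table made for exon 22 of Kif11 served as an alternative.

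CPM were computed from library totals of 7205010 to 18454549. Genes detected in 3 or more libraries were tested with edgeR 4.0.16 (R 4.3.3; TMM, quasi-likelihood, Benjamini-Hochberg, 0.05), over the 17 libraries of wt/fl and fl/del or, for fl/fl, all 21; DESeq2 1.42.0 was an alternative. The fits were tested on simulated data.

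The members and lists were chosen with earlier results of these data known. Named were the 7 members, Kif11, the 2 genes most like each member, and listed genes that were called, at most 3 per list and comparison, or highest by TPM; a listed gene is not reported here. The comparison of long and short transcripts, the relatives set beside each member, and the sum of follicle cell markers without Cyp19a1 and Nr5a2 were chosen after seeing the data. Promoter sequences are from RefSeq.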

Additional observations from a re-analysis of the deposited data

How the results depend on the processing

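Of 1659 fold changes of a member under an alternative, 1652 kept their side of the threshold, 6 lost the call, all of Cd9, and 1 gained it; none was reversed, and 53 that were not called changed sign. The number of members called in wt/fl Spo11-Cre against wt/fl went from 1 to 0 with libraries of one name prefix summed and ran from 0 to 1 with 1 library left out. Over the 6 groups it went from 0 to 1, Trpm7, without a filter on low counts and with a replicate block, and ran from 0 to 1 with 1 library left out. The block also gave 1 call in the fl/fl groups against wt/fl, Trpm7 with a log2 fold change of 0.58 and an edgeR adjusted p of 0.0363; other counts of members called kept their value under the block. Replicate numbers do not pair these libraries, since deviations of same-numbered libraries from their group means correlated by −0.14 to 0.14 over 24 pairs. The order by level per length was the same for all 7 genes by counts per kilobase, with 0 changed places. Of 273 group levels under an alternative, 272 moved by less than 1 SD, and Trpm7 in Zp3-Cre moved to 31.7 CPM with TMM library sizes. The count of all genes called was less stable: between wt/fl Spo11-Cre and wt/fl it was 491, with 931 by DESeq2, 742 without a filter and 179 to 592 with 1 library left out; for fl/del against wt/fl it was 5, with 80 without a filter, 96 under the block and 1 to 18; for the fl/fl groups against wt/fl it was 647, with 233 after summing by prefix, 238 in the groups compared alone and 303 to 1353; between the drivers it was 207, with 7 in the groups compared alone. Cd81 was limited by both depth and spread: its coefficient of variation was 68.4% in wt/fl Spo11-Cre, where counting error alone would give at least 23.8%. The 2 libraries per driver limited the test between the drivers.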

Other observations

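The levels per length of the listed genes describe which calcium machinery transcripts the fully-grown oocytes held. Among calcium decoders, Calm2, which encodes the calcium sensor calmodulin, averaged 1691 TPM over 21 libraries, and the oocyte kinase Wee2 averaged 463 TPM. Of the store-operated entry genes, Orai1, the plasma membrane pore, averaged 108 TPM (84.2 to 134), against 2.03 TPM for Orai3 and 0.0518 TPM for Orai2. Its sensors differed as well, with Stim2 at 19.2 TPM and Stim1 at 0.231 TPM. Calr, a calcium-binding chaperone of the store, averaged 189 TPM. Among the other channels Trpc4 led at 12.0 TPM, above Trpv2 at 8.90 TPM and Trpm6 at 3.64 TPM. On the egg surface, Cd55 averaged 270 TPM, above Cd9, and Itga9 92.8 TPM.

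Transcripts of the sperm side were mixed, with 4 of 12 at 0 in every library. Plcz1, which encodes the sperm phospholipase, Tmem95, Catsper1 and Catsper4 were those at 0, and the summed level of the 12 sperm-borne partners was 9.85 to 17.5 CPM. Catsper3 was the highest of them at 10.4 TPM (3.49 to 16.2), above Trpm7 and Itpr1 in mean level, then Dcst2 at 3.52 TPM and Catsper2 at 1.59 TPM.

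No library was flagged as an outlier of its group in any of 28 sets of 4 or 5 CPM values of a member. The rule divides the gap to the next value by the range. At these sizes the gap must fill most of the range, so smaller departures go unflagged. Izumo1r was 733 CPM in fl/del replicate 3, the library of lowest depth, and 583 to 612 CPM in the rest of that group. The interaction passed the threshold for 0 of 7 members.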
